A study of Mus musculus with 13 samples.

Results

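Chemokine ligand genes, 10 of the 55487 genes in the count table, were followed across the RNA of newborn mouse microglia: Ccl2, Ccl3, Ccl4, Ccl5, Ccl7, Ccl9, Ccl12, Cxcl2, Cxcl10 and Cxcl16. They were taken by gene symbol, matched through the Ensembl identifier of each row, and all 10 passed the filter on low counts. The study sequenced RNA of brain microglia from pups of dams that had undergone maternal immune activation (MIA) and from control pups (CON), with 5 retained libraries in each group. A further 3 libraries, MIA 6, MIA 7 and CON 6, have titles that mark them as excluded, and they are shown beside the others and enter only where stated. The pups of every group were postnatal day 4 by title and postnatal days 3 to 5 by the series' description. All brains were taken without perfusion, freed of meninges, digested with papain at 37 °C and sorted with magnetic beads against CD11b, a surface protein of microglia that other myeloid cells carry too. The sources used here do not give the agent that the dams received, the strain, the sex or the litters. Nothing says that the libraries of a group came from separate animals, so the p-values measure only the spread between these samples.

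Chemokines are small secreted proteins that draw leukocytes along a gradient by binding G protein-coupled receptors on them. In brain, microglia are a source of the CC ligands Ccl2, Ccl3 and Ccl4, and their transcription is known to rise soon after stimuli that activate the transcription factor NF-kB. The ligands fall by receptor: the monocyte chemoattractants Ccl2, Ccl7 and Ccl12 act on Ccr2, Ccl3, Ccl5 and Ccl9 act on Ccr1, and the CXC ligands Cxcl2, Cxcl10 and Cxcl16 act on Cxcr2, Cxcr3 and Cxcr6.

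The promoter windows of 5 of the 10 genes were in the RefSeq table of build GRCm38.p6, each reaching 250 bases before to 50 bases after the transcription start. Of these, 4 are printed, since Cxcl2 and Cxcl10 hold matches to the NF-kB consensus and were, against the other libraries, the lowest of the ligands in a pair of control libraries, Ccl3 was low there too and holds no match, and Ccl9 holds a match and was not low in both. The windows lie at chr5:90903649-90903948, plus strand (Cxcl2), chr5:92348840-92349139, minus strand (Cxcl10), chr11:83649329-83649628, minus strand (Ccl3) and chr11:83578587-83578886, minus strand (Ccl9). Capitals mark the matches to the NF-kB consensus.
Cxcl2: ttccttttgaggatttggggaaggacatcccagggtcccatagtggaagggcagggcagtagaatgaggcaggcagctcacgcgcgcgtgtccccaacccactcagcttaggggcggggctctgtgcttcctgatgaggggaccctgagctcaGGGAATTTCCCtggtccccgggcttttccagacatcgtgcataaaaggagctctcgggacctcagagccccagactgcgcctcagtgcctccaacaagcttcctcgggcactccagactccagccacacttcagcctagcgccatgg
Cxcl10: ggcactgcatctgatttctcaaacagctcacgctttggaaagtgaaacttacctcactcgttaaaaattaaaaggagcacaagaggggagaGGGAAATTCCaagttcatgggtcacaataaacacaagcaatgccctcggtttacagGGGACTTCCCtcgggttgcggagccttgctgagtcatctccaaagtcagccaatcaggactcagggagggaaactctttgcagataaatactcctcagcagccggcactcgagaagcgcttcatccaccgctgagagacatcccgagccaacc
Ccl3: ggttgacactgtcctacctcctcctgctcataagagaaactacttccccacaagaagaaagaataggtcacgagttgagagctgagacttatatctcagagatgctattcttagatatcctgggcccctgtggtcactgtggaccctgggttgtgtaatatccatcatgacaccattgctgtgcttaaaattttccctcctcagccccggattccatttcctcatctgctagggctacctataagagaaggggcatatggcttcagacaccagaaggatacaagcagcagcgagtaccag
Ccl9: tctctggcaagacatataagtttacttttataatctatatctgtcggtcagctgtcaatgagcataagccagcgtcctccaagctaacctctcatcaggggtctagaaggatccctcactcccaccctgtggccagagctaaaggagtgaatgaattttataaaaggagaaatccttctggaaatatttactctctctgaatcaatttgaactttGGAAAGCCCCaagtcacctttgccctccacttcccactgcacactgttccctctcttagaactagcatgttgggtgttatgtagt
Both strands were searched for the NF-kB consensus and for 3 sets of letters. These were GAAA followed after 2 bases of any kind by GAAA again (ISRE, the element of interferon-responsive genes), TGANTCA (AP-1, the site of Fos and Jun dimers) and TATAAA. Cxcl2 held a pair of overlapping NF-kB matches that begin at -97 and -96 from the start, and Cxcl10 held matches at -159 and -103. The Ccl9 match began at -35. The window of Ccl12, which is not printed, held no NF-kB match, and Ccl12 was low in the same pair of control libraries. Thus 3 of the 5 windows held the NF-kB consensus. Cxcl10 also held the ISRE letters at -213 and the AP-1 letters at -74, and Ccl9 the AP-1 letters at -53. TATAAA stood in the windows of Ccl12, at -31, and Ccl9. Of 32851 promoter windows of the same length, 4.51% held the NF-kB consensus, 3.44% the ISRE letters, 7.81% the AP-1 letters and 13.6% TATAAA. A match is a string of letters and not a measured site.

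Total counts ran from 25387055 to 35593541 per library, and between 19577 and 20956 genes had a count. All 8 microglial markers were present in all 13 libraries, at a summed level of 11567 to 15043 CPM (counts scaled to a common library size by TMM) in MIA 1 to 5 and 17734 to 22997 CPM in CON 1 to 5. Each of the 8 was lower in MIA by edgeR's quasi-likelihood test with a Benjamini-Hochberg adjusted p below 0.05, the threshold used throughout. All 8 endothelial markers were higher in MIA, at a summed 2950 to 5024 CPM against 1148 to 1662 CPM in CON. Among the neuronal markers 4 of 6 were higher (summed 97.3 to 146 CPM in MIA and 50.8 to 68.7 CPM in CON). Of the monocyte markers 1 of 6, Ms4a4c, was lower (summed 11.9 to 15.5 CPM in MIA and 14.1 to 32.9 CPM in CON). By edgeR 0 markers of border-associated macrophages, neutrophils, lymphocytes, astrocytes or erythroid cells passed. At an unadjusted p below 0.05 stood 2 neutrophil markers and 1 astrocyte marker, against 3518 of 15511 genes tested. DESeq2 called 2 and 1 of those lists, and limma-voom called 0 of all 5 lists. With all 13 libraries edgeR called 1 of the 8 microglial, 7 of the 8 endothelial and 3 of the 6 neuronal markers, and Ms4a4c did not pass (adjusted p = 0.0687). With all 13 except CON 1 and CON 2 no microglial, endothelial, neuronal or monocyte marker passed, the lowest edgeR adjusted p being 0.0505 (Snap25). The retained libraries without CON 1 and CON 2 gave calls for 6 microglial, 8 endothelial, 4 neuronal, 3 monocyte and 2 astrocyte markers. The lymphocyte markers summed to at most 2.49 CPM in any library. Markers of border-associated macrophages summed to 746 to 2017 CPM in MIA 1 to 5 and 1249 to 1874 CPM in CON 1 to 5. Their lowest sum, 746 CPM, was that of MIA 3. Neutrophil markers summed to 23.8 to 42.4 CPM in MIA 1 to 5 and 37.0 to 91.1 CPM in CON 1 to 5. In bulk RNA, fewer cells of a type and less RNA per cell cannot be told apart. In all, 892 of 15511 genes were higher and 710 lower in MIA. Scaled by total counts alone, 1036 were higher and 496 lower, and 1057 genes passed without MIA 4 and 1037 without MIA 5. Leaving out CON 2, MIA 4 or MIA 5 left 464, 382 and 365 lower genes.

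CON 1 and CON 2 stood apart from the other 11 libraries in most of the ligands, so results are given with and without them. Both lay below all 11 others for 7 of the 10 ligands, against 6.03% of all tested genes, and below them by at least 2-fold for 6 of the 10, against 0.696% of all tested genes. The 10 genes took 0.0449% of all counts in CON 1, 0.0878% in CON 2 and 0.239 to 0.406% elsewhere. The gap was widest for Cxcl2, whose lowest value among the other 11 libraries was 10.6 times the higher of CON 1 and CON 2, and for Cxcl10, at 9.58 times. It was 4.33 times for Ccl2, 3.96 for Ccl4, 3.71 for Ccl7, 2.66 for Ccl3 and 1.64 for Ccl12. Ccl5, Ccl9 and Cxcl16 were not low in both. The heat map of the 10 genes shows the same pair of columns.

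**Figure D1:**
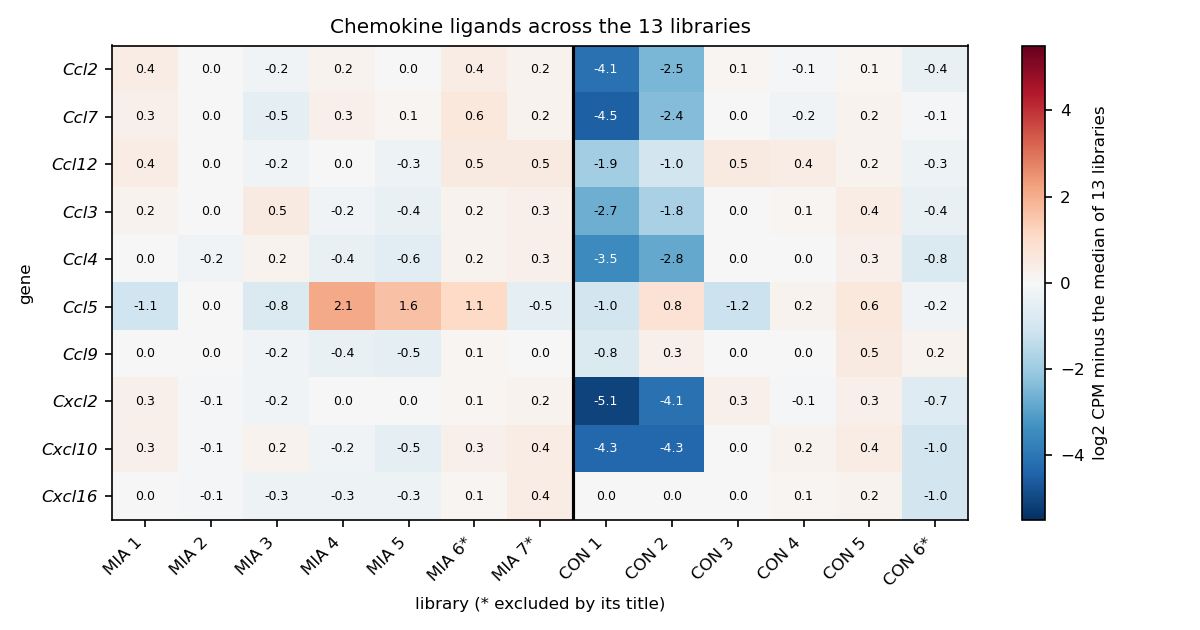
Log2 CPM of each chemokine ligand (rows) in each of the 13 libraries (columns; an asterisk marks libraries excluded by title), minus the gene's median over the 13. CON 1 and CON 2 lie below all other columns in 7 rows, from -1 for Ccl12 in CON 2 down to -5.1 for Cxcl2 in CON 1. The MIA columns stay between -1.1 and 2.1.

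None of the 10 ligands passed the test between the retained MIA and CON libraries. With CON 1 and CON 2 in the fit, 8 of the 10 had a positive and 2 a negative log2 fold change, with a median of 0.44 against -0.01 over all genes tested. By limma-voom and with the replicate block the median of the ligands was 0.91 and 0.86, against 0.01 over all genes in both. The count of 0 from edgeR stands against 10.3% of all tested genes (5.75% higher, 4.58% lower). Of the 10 ligands 1, Cxcl16, had an unadjusted p below 0.05, against 3518 of 15511 genes tested. DESeq2 and limma-voom also called 0 of the 10, against 14.2% and 10.8% of all genes. Without CON 1 and CON 2 the signs were 3 positive and 7 negative, and the median was -0.22 against 0.01 over all genes. There edgeR again called 0, against 12.2% of all genes. An unadjusted p below 0.05 was found for 3 of the 10 ligands (Ccl9, Ccl12 and Cxcl16), against 4209 of 16104 genes tested. With all 13 libraries the signs were 9 positive and 1 negative, and edgeR called 0 of the 10, against 4.22% of all genes. There 0 of the 10 had an unadjusted p below 0.05, against 3117 of 15618 genes tested. With all 13 except CON 1 and CON 2 the signs were 8 positive and 2 negative, and edgeR called 0, against 0.561% of all genes. There 1 of the 10 (Ccl9) had an unadjusted p below 0.05, against 3152 of 16050 genes tested. Without CON 1 alone 1 ligand, Ccl9, was called, against 14.4% of all genes.

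**Figure D2:**
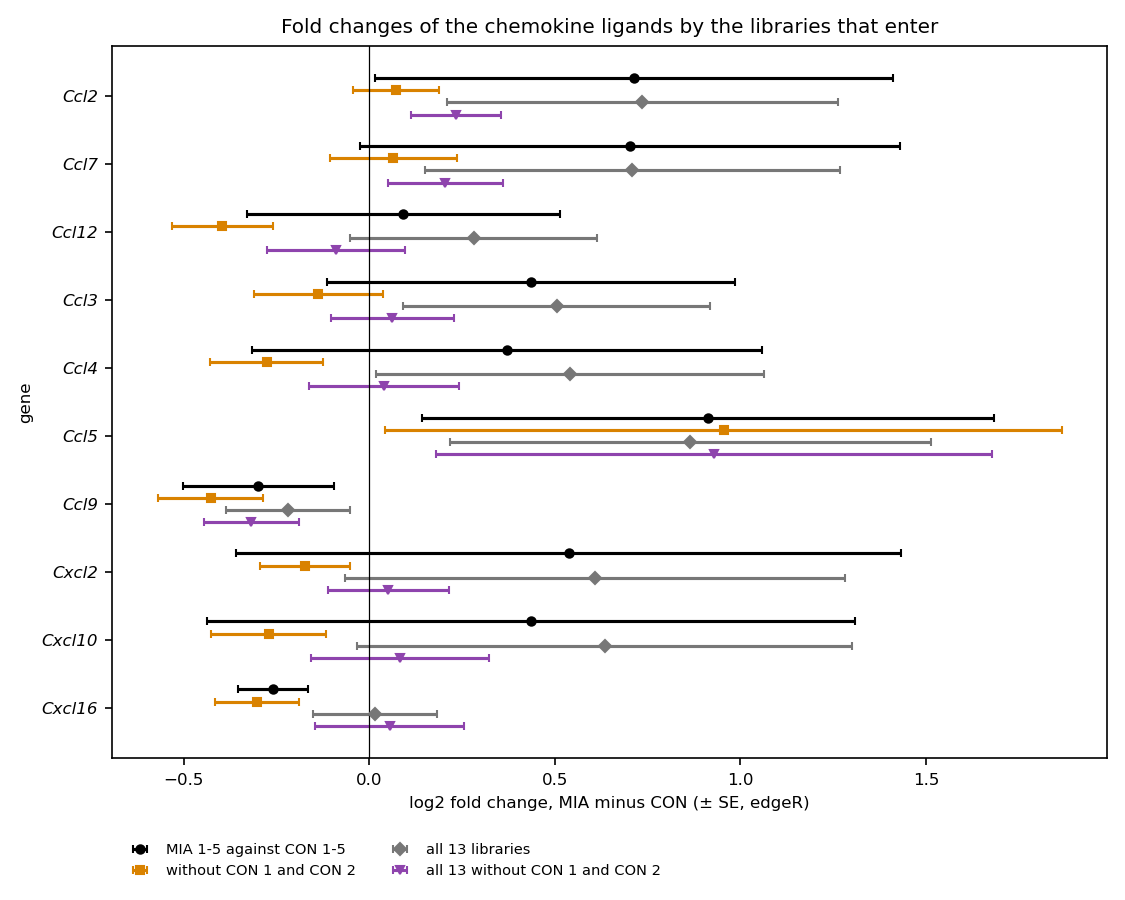
Log2 fold change of each ligand, MIA minus CON, with its SE (bars), from edgeR with 4 choices of libraries. The points without CON 1 and CON 2 lie left of those from the 10 retained libraries for 9 of the 10 genes, Ccl5 being the exception, and their bars are shorter for every gene but Ccl5 and Cxcl16.

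Ccl2, the main attractant of Ccr2-bearing monocytes, had 734, 548, 488, 641 and 553 CPM in MIA 1 to 5, against 33.0, 96.4, 580, 520 and 578 CPM in CON 1 to 5. MIA 6 and MIA 7 had 735 and 627 CPM, and CON 6 had 417 CPM. The MIA libraries overlapped CON 3, CON 4 and CON 5, and all 5 lay above CON 1 and CON 2. The means were 593 ± 95.9 CPM in MIA and 362 ± 273 CPM in CON (SD, n = 5 each), with a log2 fold change of 0.71 ± 0.70 (edgeR, SE; adjusted p = 0.624). Without CON 1 and CON 2 it was 0.07 ± 0.12 (edgeR, SE; adjusted p = 0.745).

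Ccl7, which lies beside Ccl2 on chromosome 11 and shares its receptor Ccr2, had 483, 387, 273, 480 and 407 CPM in MIA 1 to 5, against 17.6, 73.7, 384, 334 and 437 CPM in CON 1 to 5. MIA 6 and MIA 7 were at 580 and 444 CPM, and CON 6 at 355 CPM. It followed the pattern of Ccl2, with CON 1 lowest, CON 2 next and the rest overlapping. The log2 fold change was 0.70 ± 0.73 (edgeR, SE; adjusted p = 0.649), and 0.07 ± 0.17 without CON 1 and CON 2 (edgeR, SE; adjusted p = 0.855). Across the 13 libraries Ccl2 and Ccl7 were each other's nearest gene among 13863 genes compared, with a root-mean-square difference of 0.18 between their centred log2 CPM. That likeness, like those below, is a description over 13 libraries that include CON 1 and CON 2.

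Ccl12, a mouse ligand of Ccr2, had 121, 93.6, 80.9, 94.5 and 76.8 CPM in MIA 1 to 5, against 25.6, 46.5, 135, 126 and 105 CPM in CON 1 to 5. Of the excluded libraries, MIA 6 and MIA 7 had 133 and 130 CPM and CON 6 had 76.1 CPM. CON 1 and CON 2 were the lowest libraries, but 4 of the 5 MIA libraries lay below all of CON 3, CON 4 and CON 5. The groups averaged 93.4 ± 17.3 CPM in MIA and 87.6 ± 48.8 CPM in CON (SD, n = 5 each), with a log2 fold change of 0.09 ± 0.42 (edgeR, SE; adjusted p = 0.932). Without CON 1 and CON 2 it was -0.40 ± 0.14 (edgeR, SE; adjusted p = 0.0817), and without CON 1, CON 2 or MIA 1 alone it was -0.14, -0.07 and -0.02.

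Ccl3, a ligand of Ccr1 also known as MIP-1 alpha, had 867, 725, 1020.4, 634 and 571 CPM in MIA 1 to 5, against 114, 210, 744, 800 and 953 CPM in CON 1 to 5. The excluded MIA 6 and MIA 7 had 845 and 934 CPM, and CON 6 had 558 CPM. Of the MIA libraries 3 lay below and 1 above all of CON 3 to CON 5, and all 5 above CON 1 and CON 2. The log2 fold change was 0.44 ± 0.55 (edgeR, SE; adjusted p = 0.719), and -0.14 ± 0.17 without CON 1 and CON 2 (edgeR, SE; adjusted p = 0.674).

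Ccl4, the neighbour of Ccl3 on chromosome 11, also known as MIP-1 beta, had 971, 858, 1112, 721 and 656 CPM in MIA 1 to 5, against 85.3, 141, 963, 988 and 1159 CPM in CON 1 to 5. The excluded libraries had 1118 and 1177 CPM (MIA 6 and MIA 7) and 556 CPM (CON 6). Of the MIA libraries 3 lay below all of CON 3 to CON 5. As for Ccl3, MIA 3 was the highest and MIA 5 the lowest of the retained MIA libraries. The log2 fold change was 0.37 ± 0.69 (edgeR, SE; adjusted p = 0.819), and -0.28 ± 0.15 without CON 1 and CON 2 (edgeR, SE; adjusted p = 0.287). Its nearest gene was Ccrl2, a non-signalling receptor of the chemokine receptor family, with a root-mean-square difference of 0.15.

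Ccl5, or RANTES, a T cell and monocyte attractant through Ccr1 and Ccr3, was close to the limit of detection. It had 0.133, 0.349, 0.170, 1.69 and 1.20 CPM in MIA 1 to 5, against 0.138, 0.656, 0.117, 0.395 and 0.569 CPM in CON 1 to 5, from 4 to 45 counts a library. Among the excluded libraries MIA 6 and MIA 7 were at 0.847 and 0.234 CPM, and CON 6 at 0.294 CPM. MIA 4 and MIA 5 were the highest of the 13 libraries and MIA 1 among the lowest, and the groups overlapped. The upper limit for a gene with no count, set at 3 counts, came to 0.0875 to 0.117 CPM, a limit that covers counting error only. The log2 fold change was 0.91 ± 0.77 (edgeR, SE; adjusted p = 0.546) and 0.95 ± 0.91 without CON 1 and CON 2 (edgeR, SE; adjusted p = 0.555).

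Ccl9, a ligand of Ccr1 in mouse, had 226, 220, 192, 167 and 159 CPM in MIA 1 to 5, against 131, 282, 226, 230 and 316 CPM in CON 1 to 5. Ccl9 in the excluded MIA 6 and MIA 7 was at 246 and 234 CPM, and CON 6 had 255 CPM. CON 1 was the lowest library and CON 2 among the highest, and 4 of the 5 MIA libraries lay below CON 2, CON 3, CON 4 and CON 5. The means were 193 ± 30.4 CPM in MIA and 237 ± 70.0 CPM in CON (SD, n = 5 each), with a log2 fold change of -0.30 ± 0.20 (edgeR, SE; adjusted p = 0.440). Without CON 1 alone it was -0.45 ± 0.13 and passed (edgeR, SE; adjusted p = 0.0339), and without CON 1 and CON 2 it was -0.43 ± 0.14 (edgeR, SE; adjusted p = 0.0774). With all 13 libraries it was -0.22 ± 0.17 (edgeR, SE; adjusted p = 0.524).

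Cxcl2, a neutrophil attractant through Cxcr2, had 94.9, 69.1, 68.5, 78.4 and 76.5 CPM in MIA 1 to 5, against 2.11, 4.41, 96.2, 71.4 and 92.4 CPM in CON 1 to 5. MIA 6 and MIA 7 had 84.3 and 86.4 CPM, and CON 6 had 46.7 CPM. CON 1 and CON 2 were more than 10 times below every other library, and the other retained libraries of both groups overlapped. The log2 fold change was 0.54 ± 0.90 (edgeR, SE; adjusted p = 0.795), and -0.17 ± 0.12 without CON 1 and CON 2 (edgeR, SE; adjusted p = 0.411). Its nearest gene was the neighbouring ligand Cxcl1, which also acts on Cxcr2, with a root-mean-square difference of 0.33. Of the 50-base windows of its transcripts 5.84% also occur in Cxcl3, so a part of its counts could be split between both. Cxcl3 had at most 0.853 CPM in any library, and the counts of Cxcl2 were not whole in 2 libraries.

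Cxcl10, an interferon- and NF-kB-responsive attractant of Cxcr3-bearing T cells, had 258, 199, 240, 181 and 154 CPM in MIA 1 to 5, against 10.8, 11.04, 214, 250.6 and 277 CPM in CON 1 to 5. MIA 6 and MIA 7 had 262 and 280 CPM, and CON 6 had 106 CPM. CON 1 and CON 2 were close to each other and far below the rest, and 3 of the 5 MIA libraries lay below all of CON 3 to CON 5. The log2 fold change was 0.44 ± 0.87 (edgeR, SE; adjusted p = 0.833), and -0.27 ± 0.16 without CON 1 and CON 2 (edgeR, SE; adjusted p = 0.306). Its nearest gene was Ptgs2, the inducible cyclooxygenase, with a root-mean-square difference of 0.29. Art3 overlaps Cxcl10 and shares 3.59% of its 50-base windows, so the counts of Cxcl10 could include reads of Art3. Gm17268 overlaps Ccl2, but 0% of the 50-base windows of Ccl2 occur in another gene.

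Cxcl16, a membrane-anchored ligand of Cxcr6 that Adam10 sheds, had the smallest CV of the 10 over the retained libraries of each group (10.3% in MIA and 5.11% in CON). It had 27.6, 25.8, 22.7, 22.8 and 21.8 CPM in MIA 1 to 5, against 28.1, 27.7, 28.0, 29.4 and 31.2 CPM in CON 1 to 5. The 5 MIA libraries lay below the 5 CON libraries, MIA 1 and CON 2 being nearly equal, a separation that 4.36% of all tested genes showed in this direction, and 9.39% against CON 3 to CON 5 alone. The means were 24.1 ± 2.48 CPM in MIA and 28.9 ± 1.47 CPM in CON (SD, n = 5 each), with a log2 fold change of -0.26 ± 0.09 that did not pass (edgeR, SE; adjusted p = 0.111). The excluded libraries ran the other way: MIA 6 and MIA 7 had 30.4 and 35.4 CPM and CON 6 had 13.5 CPM, and with all 13 libraries the log2 fold change was 0.02 ± 0.17 (edgeR, SE; adjusted p = 0.978). Its counts were not whole in 13 of 13 libraries, and 16.9% of its 50-base windows also occur in Zmynd15, which overlaps it. The kit does not mark the strand, so reads of the overlap cannot be assigned to either gene, and the level of Cxcl16 is uncertain to that extent.

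**Figure D3:**
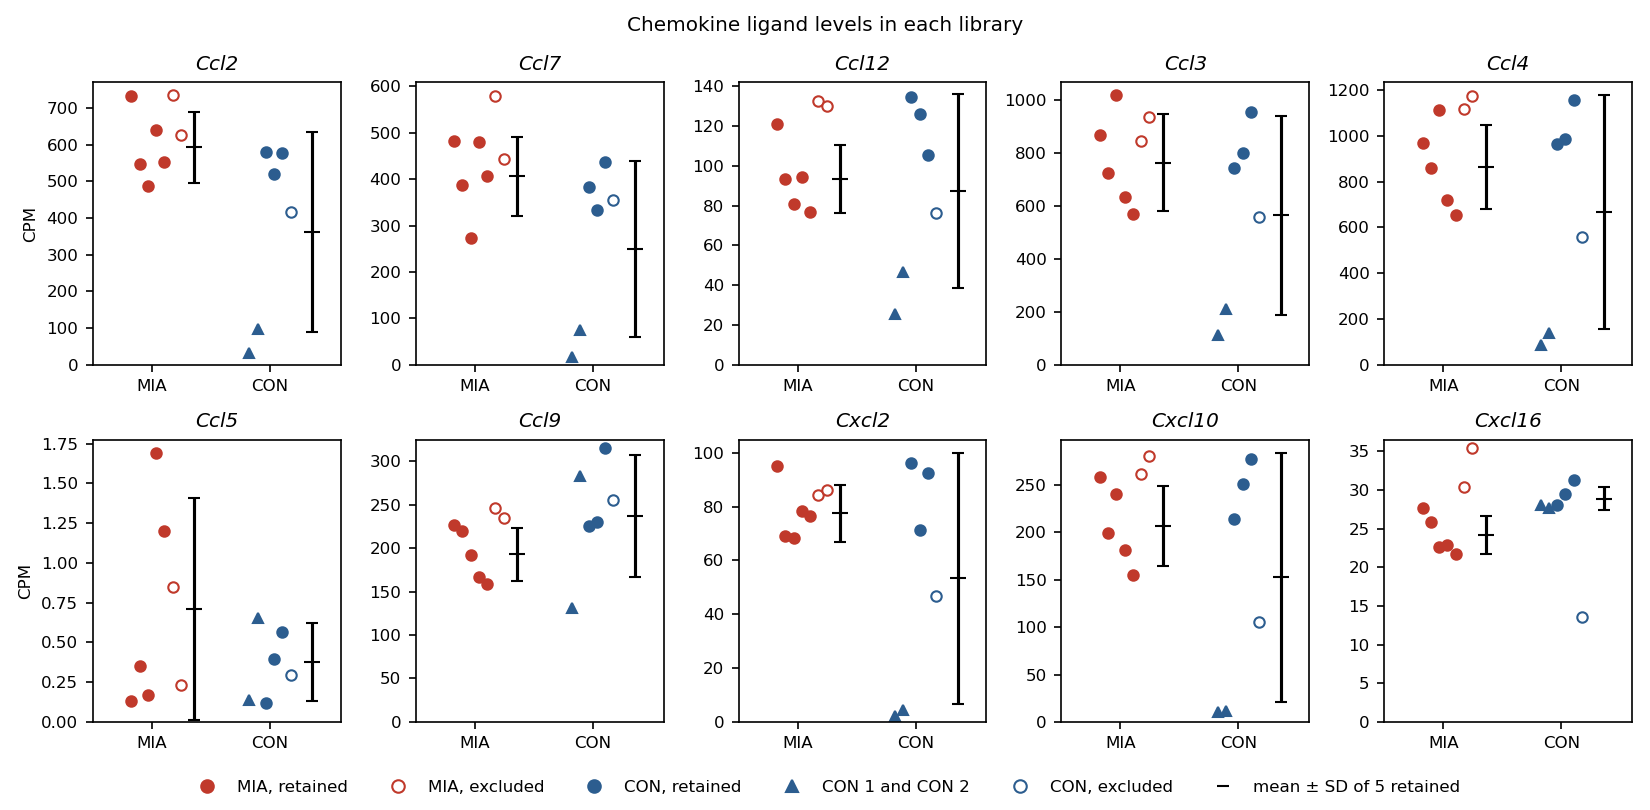
CPM of each of the 10 ligands in every library, MIA left and CON right, with excluded libraries as open symbols and the mean ± SD of the 5 retained libraries beside them. CON 1 and CON 2 lie apart from CON 3 to CON 5 in Ccl2, Ccl3, Ccl4, Ccl7, Ccl12, Cxcl2 and Cxcl10, and the SD of CON is wide there.

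Per kilobase of exonic sequence in GENCODE M21, the most abundant ligand in MIA was Ccl4, at a level of 1308 ± 280 CPM per kb, and Ccl3 followed at 997 ± 237 (SD, n = 5). In CON these levels were 1011 ± 776 and 736 ± 492 CPM per kb (SD, n = 5). Ccl2 and Ccl7 followed at 521 ± 84.3 and 507 ± 107 CPM per kb in MIA (SD, n = 5). Next came Ccl12 at 174 ± 32.3, Cxcl10 at 91.7 ± 18.9, Ccl9 at 63.3 ± 9.99 and Cxcl2 at 37.5 ± 5.17 CPM per kb in MIA (SD, n = 5). Cxcl16, at 7.99 ± 0.822 CPM per kb, and Ccl5, at 0.738 ± 0.729 CPM per kb, were last in MIA (SD, n = 5). Within MIA, Ccl4 and Ccl3 overlapped in range, as did Ccl2 and Ccl7, and Cxcl10 and Ccl9, while the other neighbours in the order did not.

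The ligands varied among the MIA libraries at a CV of 13.8% (Cxcl2) to 23.8% (Ccl3), leaving out Cxcl16 at 10.3% and the scarce Ccl5 at 98.7%. The median over 8743 tested genes with a mean of at least 10 CPM was 11.04% in MIA and 13.1% in CON. In CON the 7 ligands that were low in CON 1 and CON 2 had CVs of 55.7% to 87.5%, and over CON 3 to CON 5 alone 6.04% (Ccl2) to 15.4% (Cxcl2), against a median of 9.14% for all such genes. These CVs of CON 3 to CON 5 rest on 3 libraries, chosen after CON 1 and CON 2 were seen to be low. Over the 13 libraries, the genes closest to the mean profile of the ligands were Clk1, Cd83, Cass4, Gem and Bcl3, with root-mean-square differences of 0.21 to 0.29 in log2 CPM, against a median of 0.99 over 13863 genes. Of the ligands whose nearest gene is not named above, Ccl3 was nearest to Cd83 (0.26) and Ccl12 to Map3k8 (0.23). Ccl9 was nearest to Cstb (0.14), Cxcl16 to Tesk2 (0.15) and the scarce Ccl5 to Irf4 (0.63).

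Some lists of genes around the ligands were low in CON 1 and CON 2 as well, and the plot of summed lists shows them. The reported receptors of the ligands were not low in both. They summed to 88.2 CPM in CON 1, 136 CPM in CON 2 and 102 to 126 CPM in CON 3 to CON 5. The 10 ligands summed to 2676 to 3784 CPM in MIA 1 to 5, and to 448 CPM in CON 1, 893 CPM in CON 2 and 3350 to 3949 CPM in CON 3 to CON 5. The 12 NF-kB target genes other than chemokines, which include Cd83, Nfkbia, Tnfaip3, Tnf and Il1b, summed to 4296 to 5872 CPM in MIA, and to 843, 899 and 5592 to 6435 CPM in CON 1, CON 2 and CON 3 to CON 5. The 12 immediate early genes, among them Fos and Egr1, summed to 6500 to 7581 CPM in MIA, and to 2465, 2301 and 9055 to 10320.3 CPM in the same controls. Erythroid markers, haemoglobin genes among them, summed to 1742 to 3049 CPM in MIA, and to 61.4, 80.3 and 1162 to 2195 CPM in the controls. Their part in the low ligand levels of CON 1 and CON 2 was not tested. The microglial sums of CON 1 and CON 2, 19312 and 22997 CPM, lay within or above the 17734 to 20249 CPM of CON 3 to CON 5. Astrocyte markers went the other way. They summed to 768 CPM in CON 1, 547 CPM in CON 2 and 266 to 345 CPM in CON 3 to CON 5.

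**Figure D4:**
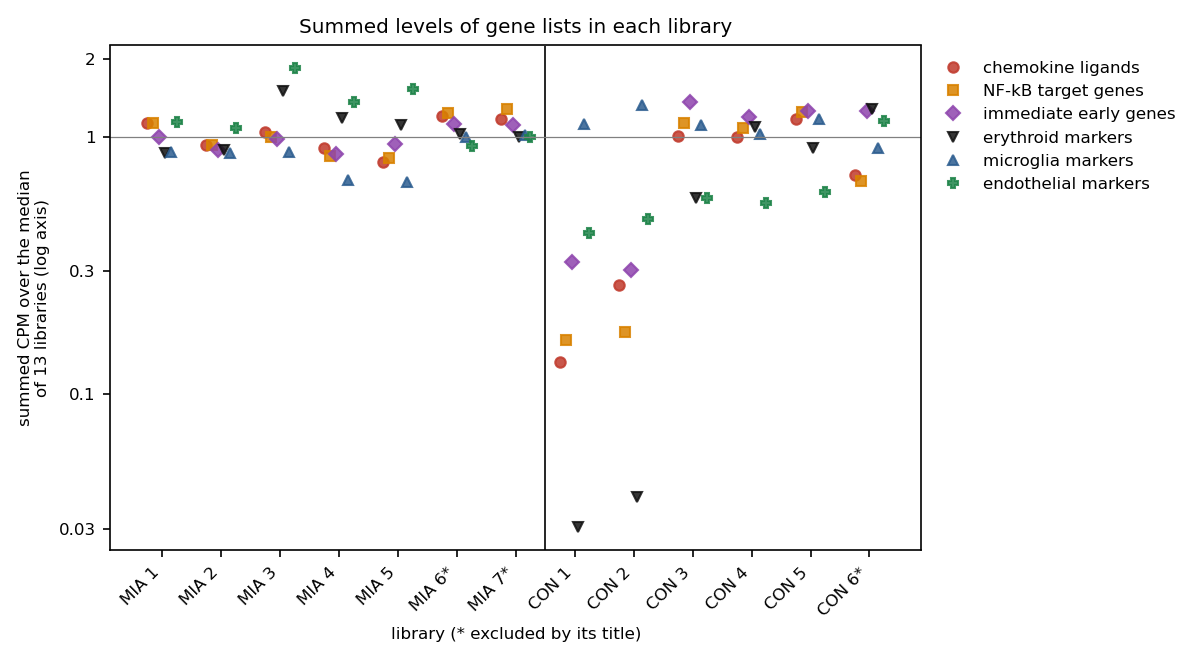
Summed CPM of 6 gene lists in each library, divided by the list's median over the 13 libraries, on a log axis. The ligands, NF-kB targets, immediate early genes and erythroid markers are low together in CON 1 and CON 2 (ligands to 448 and 893 CPM), while the microglial markers are not, and the endothelial markers are low in CON 1 to CON 5 and not in CON 6.

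Of the 12 NF-kB targets edgeR called 0 in the 10 retained libraries, with 0 at an unadjusted p below 0.05 and 0 by DESeq2 and limma-voom. Over all 15511 genes tested by edgeR, 3518 had an unadjusted p below 0.05. Nfkbia, the inhibitor that NF-kB itself induces, was at 685 ± 94.0 CPM in MIA and 588 ± 449 CPM in CON (SD, n = 5 each). Cd83, a surface protein of activated antigen-presenting cells, was at 1368 ± 208 CPM in MIA and 1102 ± 732 CPM in CON, and Nfkbiz, a nuclear regulator of NF-kB, at 643 ± 88.6 CPM in MIA and 499 ± 385 CPM in CON (SD, n = 5 each). The median log2 fold change of the 12 was 0.27, against -0.01 over all genes, and it was 0.81 by limma-voom, 0.76 with the replicate block, -0.28 without CON 1 and CON 2 and -0.034 with all 13 except CON 1 and CON 2. Without CON 1 and CON 2, left out after they were seen to be low, 2 of the 12 fell, against 866 of 16104 tested genes. Nfkbia fell by 0.43 and Tnfaip3, a brake on NF-kB signalling, by 0.42 on the log2 scale (edgeR adjusted p = 0.0208 and 0.0130). With all 13 except CON 1 and CON 2 neither kept its call, Nfkbia being at -0.28 and Tnfaip3 at -0.067 (edgeR adjusted p = 0.180 and 0.890). Of the 12 immediate early genes edgeR, DESeq2 and limma-voom called 0 in the 10 retained libraries, with 0 at an unadjusted p below 0.05 and a median log2 fold change of 0.13 (0.40 by limma-voom, 0.39 with the replicate block and -0.35 without CON 1 and CON 2). Fos was at 1423 ± 98.3 CPM in MIA and 1371 ± 721 CPM in CON, Egr1 at 1117 ± 82.6 CPM in MIA and 1241 ± 761 CPM in CON, and Nr4a1 at 1028 ± 126 CPM in MIA and 723 ± 556 CPM in CON (SD, n = 5 each). Without CON 1 and CON 2, 6 of the 12 fell, against the same 866 of 16104 tested genes. These were Fos, Jun, Junb, Egr1, Atf3 and Ier2, by 0.42 to 0.77 on the log2 scale (edgeR adjusted p of 0.000524 to 0.00775). With all 13 except CON 1 and CON 2, 3 of these kept their call (Jun, Egr1 and Ier2), while Fos (adjusted p = 0.0573), Junb (adjusted p = 0.0828) and Atf3, at a log2 fold change of -0.33 (edgeR adjusted p = 0.423), did not. Of 13 interferon response genes edgeR called 0 in the 10 retained libraries, while DESeq2 and limma-voom called 1 each. By edgeR 3 of the 13 had an unadjusted p below 0.05, against 3518 of 15511 genes tested. The median log2 fold change of the 13 was -0.22. Irf1 was at 83.9 ± 8.90 CPM in MIA and 62.3 ± 37.9 CPM in CON, Irf9 at 42.9 ± 4.77 CPM in MIA and 48.4 ± 6.11 CPM in CON, and Bst2 at 54.0 ± 4.95 CPM in MIA and 68.9 ± 11.8 CPM in CON (SD, n = 5 each). Bst2 fell by 0.48 on the log2 scale without CON 1 and CON 2 (edgeR adjusted p = 0.00807), and did not pass with all 13 except both (adjusted p = 0.0573).

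Of the 5 receptors of these ligands that are reported and were tested, edgeR called 0, while DESeq2 called 1 and limma-voom 0. By edgeR 1 of the 5 had an unadjusted p below 0.05, against 3518 of 15511 genes tested. The median log2 fold change of the 5 was -0.20, against -0.01 over all genes. Cxcr2, the receptor of Cxcl2, was at 7.30 ± 1.16 CPM in MIA and 11.8 ± 4.22 CPM in CON (SD, n = 5 each). All 5 MIA libraries lay below all 5 CON libraries, as for 4.36% of all tested genes. The log2 fold change of Cxcr2 was -0.70 ± 0.22 and did not pass (edgeR, SE; adjusted p = 0.0687). CON 1 and CON 2 were its highest controls, at 12.7 and 18.9 CPM, and the excluded MIA 7 had 11.7 CPM. Without CON 1 and CON 2 the log2 fold change was -0.35 (edgeR adjusted p = 0.254). With all 13 except both it was -0.22 (edgeR adjusted p = 0.516). Ccr1, the receptor of Ccl3, Ccl5 and Ccl9, had 78.1 ± 19.5 CPM in MIA and 84.9 ± 12.7 CPM in CON (SD, n = 5 each). Cxcr3, the receptor of Cxcl10, was at 10.7 ± 3.35 CPM in MIA and 10.8 ± 3.43 CPM in CON (SD, n = 5 each). Cx3cr1, the receptor of fractalkine, fell by 0.50 ± 0.10 (edgeR, SE; adjusted p = 0.00533), at 3611 ± 450 CPM in MIA and 5111 ± 459 CPM in CON (SD, n = 5 each), with an adjusted p of 0.0525 with all 13 libraries. The microglial markers, at a summed 11567 to 15043 CPM in MIA and 17734 to 22997 CPM in CON, moved the same way, and their part in the fall of Cx3cr1 was not tested.

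Of 10 tested other and atypical receptors 3 rose and 1, Cx3cr1, fell, with a median log2 fold change of 0.35. Over all tested genes 5.75% rose and 4.58% fell. Ackr1, which takes up chemokines at the wall of venules, had a log2 rise of 1.73 ± 0.31 (edgeR, SE; adjusted p = 0.00304), at 6.23 ± 1.17 CPM in MIA and 1.87 ± 0.727 CPM in CON (SD, n = 5 each). Ackr2, a scavenger of inflammatory CC ligands, rose by 1.59 ± 0.26 (edgeR, SE; adjusted p = 0.00211), at 24.3 ± 6.53 CPM in MIA and 8.07 ± 3.02 CPM in CON. Ackr3, a scavenger of Cxcl12, rose by 0.50 ± 0.13 (edgeR, SE; adjusted p = 0.0262), at 24.5 ± 2.27 CPM in MIA and 17.3 ± 3.26 CPM in CON. The Ackr3 call was lost without CON 2, CON 3, CON 4, CON 5, MIA 1, MIA 3 or MIA 4 (adjusted p up to 0.0671). Ccrl2 was at 171 ± 29.5 CPM in MIA and 140 ± 113 CPM in CON (SD, n = 5 each), with CON 1 at 17.8 and CON 2 at 21.6 CPM. Among the 13 tested other ligands 2 rose, against 5.75% of all tested genes, and the median log2 fold change was 0.24. Cxcl12, the ligand of Cxcr4 and Ackr3, rose by 1.05 ± 0.19 (edgeR, SE; adjusted p = 0.00388), at 170 ± 31.2 CPM in MIA and 82.0 ± 21.3 CPM in CON. Ccl21a, a lymphoid-tissue ligand with near-identical copies in the mouse genome, so uncertain, rose by 2.20 ± 0.65 (edgeR, SE; adjusted p = 0.0484), at 1.94 ± 1.10 CPM in MIA and 0.414 ± 0.295 CPM in CON. The Ccl21a call was lost without CON 2, CON 4, CON 5, MIA 2, MIA 3, MIA 4 or MIA 5 (adjusted p up to 0.115), without CON 1 and CON 2 (adjusted p = 0.0810) and by limma-voom (adjusted p = 0.0792). Ccl6, a CC ligand beside Ccl9, was at 115 ± 11.3 CPM in MIA and 161 ± 48.0 CPM in CON, and Pf4, named platelet factor 4, at 245 ± 79.7 CPM in MIA and 241 ± 79.6 CPM in CON (SD, n = 5 each). The lowest Pf4 value was 109 CPM, in MIA 3, and the cells that hold Pf4 here were not tested. Ccl6 fell by 0.64 and Cx3cl1, or fractalkine, rose by 0.88 on the log2 scale without CON 1 and CON 2 (edgeR adjusted p = 0.00121 and 0.00586). Neither passed with all 13 except CON 1 and CON 2 (edgeR adjusted p = 0.0668 and 0.144).

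**Figure D5:**
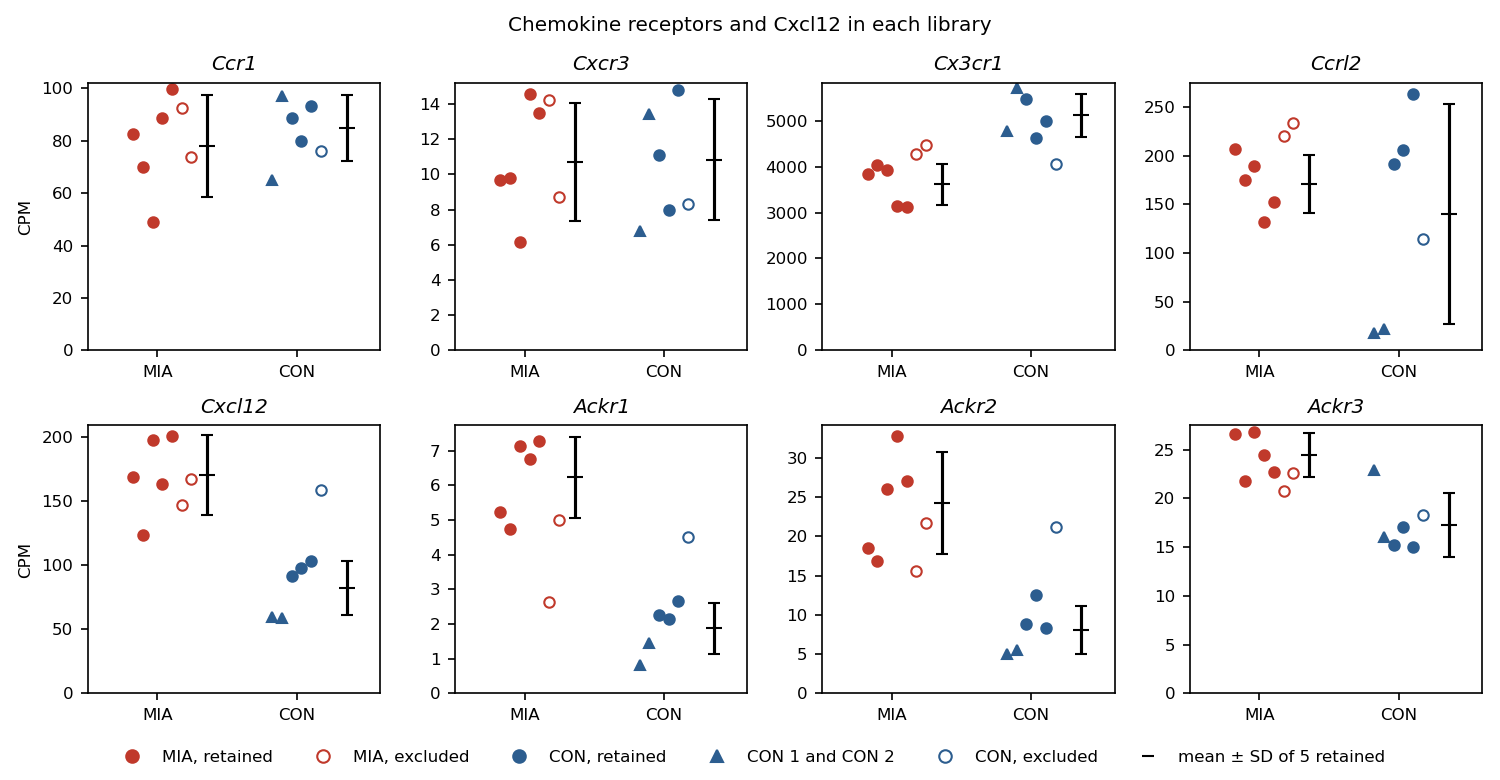
CPM of 8 chemokine receptors and related genes in every library, MIA left and CON right, with the mean ± SD of the 5 retained libraries. Cx3cr1 is lower and Cxcl12, Ackr1 and Ackr2 higher in MIA 1 to 5 than in CON 1 to 5, while CON 6 lies near the MIA level of Cxcl12 and Ackr2 (159 and 21.2 CPM). For Cx3cr1 the excluded MIA 6 and MIA 7 (4270 and 4463 CPM) lie above CON 6 (4065 CPM). For Ackr1 the excluded MIA 6 (2.64 CPM) lies below CON 6 (4.52 CPM).

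Of 6 genes that shed, trim or destroy chemokines or their mRNA, 1 rose and 1 fell, with a median log2 fold change of -0.11. The shares over all tested genes were 5.75% and 4.58%. Dpp4, a peptidase that trims chemokine N termini, had a log2 rise of 1.44 ± 0.16 (edgeR, SE; adjusted p = 0.000176), at 17.5 ± 3.56 CPM in MIA and 6.46 ± 0.470 CPM in CON (SD, n = 5 each). Adam17, a membrane sheddase, fell by 0.30 ± 0.08 (edgeR, SE; adjusted p = 0.0373), at 183 ± 8.67 CPM in MIA and 226 ± 28.0 CPM in CON. The Adam17 call was lost without CON 2, CON 4 or any of MIA 1 to 5 left out alone (adjusted p up to 0.115), scaled by total counts alone (adjusted p = 0.103), with the replicate block (adjusted p = 0.0544) and without CON 1 and CON 2 (adjusted p = 0.0733). Adam10, the sheddase of Cxcl16, was at 365 ± 16.9 CPM in MIA and 372 ± 42.8 CPM in CON (SD, n = 5 each). Zfp36, which binds AU-rich mRNA and promotes its decay, was at 620 ± 86.7 CPM in MIA and 706 ± 391 CPM in CON, and fell by 0.69 on the log2 scale without CON 1 and CON 2 (edgeR adjusted p = 0.00150), a call lost with all 13 except both (adjusted p = 0.0594). Its relative Zfp36l1 was at 470 ± 51.8 CPM in MIA and 449 ± 92.9 CPM in CON (SD, n = 5 each). Of the 11 NF-kB inducing receptors and subunits, with a median log2 fold change of 0.11, 2 fell, against 4.58% of all tested genes. Tlr4, the lipopolysaccharide receptor, fell by 0.65 ± 0.14, and Tnfrsf1a, the main tumour necrosis factor receptor, by 0.29 ± 0.07 in log2 (edgeR, SE; adjusted p = 0.0118 and 0.0254). Tlr4 was at 64.6 ± 10.6 CPM in MIA and 101 ± 21.1 CPM in CON, and Tnfrsf1a at 126 ± 8.26 CPM in MIA and 154 ± 12.3 CPM in CON (SD, n = 5 each). The Tnfrsf1a call was lost without CON 5, MIA 2, MIA 3, MIA 4 or MIA 5 (adjusted p up to 0.0739) and scaled by total counts alone (adjusted p = 0.0649). Myd88, the adaptor of Toll-like receptors, fell by 0.32 on the log2 scale without CON 1 and CON 2 (edgeR adjusted p = 0.0394) and did not pass with all 13 except both (adjusted p = 0.256). Tlr2 was at 398 ± 45.8 CPM in MIA and 369 ± 125 CPM in CON, and the subunit Rel at 168 ± 21.1 CPM in MIA and 112 ± 55.4 CPM in CON (SD, n = 5 each). The microglial markers, with a median log2 fold change of -0.55, moved the same way as Tlr4, Tnfrsf1a and Adam17. Their part in the falls of these genes was not tested. Endothelial markers, at a summed 2950 to 5024 CPM in MIA and 1148 to 1662 CPM in CON, moved with Ackr1, Ackr2, Cxcl12 and Dpp4, and their part in these rises was not tested. The excluded CON 6 had a summed 3147 CPM of them. With all 13 libraries 5 of the 10 called genes of these lists kept their call (Cxcl12, Ackr1, Ackr3, Dpp4 and Tlr4), and with all 13 except CON 1 and CON 2 only Ackr3 did, while the other 9 had edgeR adjusted p-values of 0.0807 to 0.747.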

How the data were processed

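Libraries were built from the RNA of CD11b-selected microglia by modified Smart-Seq2 and tagmentation, which keeps no strand, per the labels' protocols. The values the authors deposited are expected counts, read estimates with decimals, not normalized between libraries; RSEM, STAR and DESeq2 are named, without version or role, per the submitters' processing notes. The genome build was not given in the sources used here. Counts were rounded to whole numbers. Gene symbols were matched by Ensembl identifier (54349 exactly, 55141 with or without the version).

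The 5 retained MIA libraries were compared with the 5 retained CON libraries with edgeR 4.0.16 under R 4.3.3 (filterByExpr, TMM, robust quasi-likelihood fit) and Benjamini-Hochberg adjustment over 15511 genes. CPM used TMM factors of all 13 libraries, and the SE is the log2 fold change over the square root of F. Likeness used log2 CPM with a prior count of 2, centred on each gene's median. Alternatives were other scalings and filters (among them 10 CPM in 5 libraries), DESeq2 1.42.0, limma-voom (limma 3.58.1), a replicate block, other choices of libraries and leaving out each library. The pipeline was tested on simulated counts, drawn independently for each gene and library. They held no low level shared by CON 1 and CON 2, so that test does not cover this feature of the data.

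The text names the 10 ligands and, of each other list, genes past the threshold and the 3 most abundant; Tnf, Il1b and the genes of the pathway lists called only without CON 1 and CON 2 were named after their values were seen. A pair of genes of these lists is not reported here and enters none of their counts. Of the cell type lists, counts and summed levels are given. The members and lists were chosen with earlier results of these data known. Exonic lengths and neighbours come from GENCODE M21 and RefSeq.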

Additional observations from a re-analysis of the deposited data

How the results depend on the processing

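The ligand count was 0 in 20 of the 21 alternatives and 0 to 1 in the fits that left out 1 library, the 1 being Ccl9 without CON 1. The ligand median of 0.44 became 0.91 by limma-voom and 0.86 with the replicate block, lay between 0.43 and 0.51 under the other scalings, filters and DESeq2, and was -0.22 without CON 1 and CON 2. Without CON 1 and CON 2 the log2 fold change turned negative for Ccl3 (-0.14), Ccl4 (-0.28), Ccl12 (-0.40), Cxcl2 (-0.17), Cxcl10 (-0.27), Nfkbia (-0.43) and Fos (-0.42). With all 13 libraries Cxcl16 was at 0.016, and with all 13 except CON 1 and CON 2 Cxcl16 was at 0.055, Ccl12 at -0.089, Nfkbia at -0.28 and Fos at -0.36. With 1 library left out, Ccl12 ran from -0.14 to 0.30, Nfkbia from -0.054 to 0.51 and Fos from -0.16 to 0.22. The cause was not tested.

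Over all genes 659 passed with all 13 libraries (424 higher, 235 lower), 90 with all 13 except CON 1 and CON 2 (53 higher, 37 lower), and 1037 to 2263 with 1 library left out (672 to 1238 higher, 365 to 1025 lower), against 1602 (892 higher, 710 lower). In the 8 pathway lists together 10 genes passed, and 5 with all 13 libraries, 21 without CON 1 and CON 2, 4 with all 13 except both, and 6 to 14 with 1 library left out. Over all tested genes 10.3% passed, and 4.22% with all 13 libraries, 12.2% without CON 1 and CON 2 and 0.561% with all 13 except both. The number of genes tested in each list is given with that list. The replicate numbers were not taken as pairs: the deviations of same-numbered libraries correlated at 0.058 to 0.302, and 1 of 5 correlated best with its own number. With the replicate block 1524 genes and 0 ligands passed. Ccl5 was not tested under the strict filter, and depth limits its values, from 4 to 45 counts.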
